A study of Homo sapiens with 36 samples.

Results

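The genes examined here encode the voltage-gated calcium channels, the voltage-gated sodium channels and the hyperpolarization-activated pacemaker channels. They were chosen by symbol: every gene of the count table named CACNA, CACNB, CACNG or CACNA2D with a number, SCN with a number and A or B, or HCN with a number. The rule found 44 of the 58721 genes in the table, and no measured value entered it. By role they are 4 HCN pacemaker channels, 4 L-type, 3 T-type and 3 neuronal calcium channel pores, 4 alpha2delta, 4 beta and 8 gamma subunits of calcium channels, 10 sodium channel pores and 4 sodium channel beta subunits. Of these, 39 had enough counts to be tested and 38 reached a mean of 1 CPM (the count of a gene scaled to the size of its library, TMM-adjusted) in some group. CACNG1, CACNG2, CACNG3, SCN3A and SCN10A could not be tested, and SCN10A, a sodium channel of sensory neurons, had 0 counts in all 36 libraries.

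Voltage-gated calcium channels are built on one large pore protein, accompanied by a beta subunit on the inner side of the membrane and an alpha2delta subunit on the outer side. In the working heart the L-type pore CACNA1C carries the calcium current that starts contraction, and CACNA1D and the T-type pores contribute in pacemaker and immature heart cells. Sodium channels carry the upstroke of the action potential, and HCN channels carry the inward current of the spontaneously beating sinoatrial node, where HCN4 is the main isoform. The P/Q-, N- and R-type pores CACNA1A, CACNA1B and CACNA1E are best known for transmitter release at synapses.

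The libraries come from H1, an established human embryonic stem cell line, either wild type or labelled as a PERK knockout (PERK KO). PERK, encoded by EIF2AK3, is a kinase of the endoplasmic reticulum that slows protein synthesis under stress. Cells of both genotypes went through the same cardiomyocyte differentiation, with the WNT activator CHIR99021 first and the WNT inhibitor IWP2 later, and RNA was taken at days 0, 1, 2, 3, 5 and 10, with 3 libraries in each of the 12 groups. The sources used here do not give the kind of PERK edit, the number of clones or the origin of the replicates, so p-values measure the spread between these libraries, which may be technical. EIF2AK3 mRNA lay between 10.1 and 28.1 CPM in the 36 libraries and passed the test between wild type and PERK KO at none of the days (adjusted p from 0.127 to 0.981, edgeR). Its level therefore does not check the label, and PERK KO below means the libraries labelled so.

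Total counts ran from 14.0 to 25.9 M per library, with a median of 18.2 M. PERK KO replicate 2 of day 0 stood apart: its counts came from genes with a mean effective length of 1736 nt, against 2540 and 2495 nt in the rest of its group, and the 44 channel genes summed to 236.5 CPM in it, against 430.0 and 437.5 CPM. Wild-type replicate 3 of day 2 also differed from its group, with a chi-square per degree of freedom between counts of 81.8 and 76.6 against replicates 1 and 2. Wild-type libraries of day 3 were spread too, at 95.6 on this scale between replicates 1 and 3. At day 10 the 6 cardiomyocyte markers (TNNT2, MYH6, ACTN2, MYL7, NKX2-5 and MYBPC3) summed to 10400 to 13200 CPM per library in wild type and to 73.6 to 314 CPM in PERK KO, and all 6 were called lower in PERK KO. The 8 neural markers summed to 6.37 to 13.0 CPM in wild type, where SOX1 had 0 counts, and to 649 to 844 CPM in PERK KO, where 7 of 8 were called higher and SIX3, PAX6 and MAP2 gave most of the sum. Summed markers of fibroblasts, endothelium, smooth muscle and endoderm were also higher in every wild-type library of day 10 (2180 to 3580 CPM, 496 to 624 CPM, 370 to 414 CPM and 1330 to 2060 CPM) than in PERK KO (132 to 177 CPM, 24.6 to 47.6 CPM, 89.5 to 110 CPM and 311 to 525 CPM). So were those of skeletal muscle (136 to 204 against 1.66 to 4.19 CPM), though 1 smooth muscle, 1 skeletal muscle and 1 endoderm marker were called higher in PERK KO. Summed pluripotency markers were higher in PERK KO (676 to 709 CPM) than in wild type (412 to 533 CPM), with 3 of 6 called higher and 2 lower. In such bulk samples fewer cells of a type and less RNA per cell cannot be told apart.

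HCN4, CACNA1D and CACNA1C, which rose in wild type, and CACNA1A, which fell, had the largest day 10 differences between the genotypes among the pacemaker and calcium channel pore genes with a RefSeq promoter window. The 250 bases before one annotated start of each are shown 5′ to 3′ on the strand of the gene, from RefSeq on build GRCh38.p14, with every CpG in capitals. They lie at chr15:73368959-73369208 on the minus strand (HCN4), chr3:53494361-53494610 on the plus strand (CACNA1D), chr12:2052737-2052986 on the plus strand (CACNA1C) and chr19:13506480-13506729 on the minus strand (CACNA1A).
HCN4: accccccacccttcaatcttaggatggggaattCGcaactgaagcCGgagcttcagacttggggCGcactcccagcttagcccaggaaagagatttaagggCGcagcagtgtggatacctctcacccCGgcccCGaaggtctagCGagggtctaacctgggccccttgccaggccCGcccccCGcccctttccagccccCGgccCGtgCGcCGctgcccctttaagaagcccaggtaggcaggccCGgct
CACNA1D: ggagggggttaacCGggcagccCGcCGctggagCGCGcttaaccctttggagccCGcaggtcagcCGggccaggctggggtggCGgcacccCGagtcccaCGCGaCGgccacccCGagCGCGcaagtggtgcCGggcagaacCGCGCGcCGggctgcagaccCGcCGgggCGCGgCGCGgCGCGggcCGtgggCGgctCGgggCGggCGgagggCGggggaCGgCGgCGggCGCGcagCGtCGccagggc
CACNA1C: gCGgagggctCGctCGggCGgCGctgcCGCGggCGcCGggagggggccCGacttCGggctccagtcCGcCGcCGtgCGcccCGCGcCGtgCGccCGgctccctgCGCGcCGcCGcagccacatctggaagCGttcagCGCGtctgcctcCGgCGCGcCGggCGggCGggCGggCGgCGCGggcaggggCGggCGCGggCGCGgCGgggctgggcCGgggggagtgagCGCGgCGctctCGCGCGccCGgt
CACNA1A: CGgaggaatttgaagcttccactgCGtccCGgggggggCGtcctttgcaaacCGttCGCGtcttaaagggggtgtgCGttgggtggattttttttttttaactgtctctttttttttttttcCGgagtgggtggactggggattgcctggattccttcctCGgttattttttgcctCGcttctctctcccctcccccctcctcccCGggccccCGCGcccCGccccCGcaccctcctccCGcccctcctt
The windows differ in base composition. The CACNA1C window holds 51 CpG (85.6% G and C), a number reached by 0.114% of the 35116 RefSeq windows of this length. CACNA1D has 41 CpG (81.6% G and C), reached by 1.73% of windows. HCN4 has 14 (65.2% G and C) and CACNA1A has 17 (58.8% G and C), reached by 44.8% and 39.0% of windows, whose median is 11. On either strand, none of the 4 windows held AGATAA (the GATA motif, in 9.17% of all windows), the MEF2 motif (2.36%), AGGTGT (T-box, 9.57%), TNAAGTG (NKX2-5, 8.73%), or the left and right parts of the element bound by the neuronal repressor REST, CAGCACC (6.16%) and GGACAG (17.2%). No match says only that these letters are not in these windows. Of the 44 genes, 29 had a window in the RefSeq table, and CACNG7 was among those without one.

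At day 10 the pacemaker gene HCN4 and the L-type pores CACNA1D and CACNA1C had risen in wild type to their highest levels of the course, while CACNG7, the neuronal pores and most tested sodium channel pores had fallen. In PERK KO, HCN4 fell, CACNA1D and CACNA1C did not pass the test, and CACNA1A and CACNB4 rose. Between the genotypes at day 10, 31 of the 39 tested channel genes were called at an adjusted p under 0.05 (edgeR), against 67.3% of all tested genes. Of these, 17 were higher in PERK KO (33.3% of all genes were) and 14 lower (34.0%), and only CACNA1F was called with overlapping libraries. With an offset for each library's trend with transcript length, the split was 11 higher and 17 lower. This trend was fitted to CPM before TMM scaling and then added to that scaling. Each library's overall shift was thus taken out both by the trend and by TMM. The median difference of all genes moved from 0.0 to -0.313. Calls that change with this offset, here and below, therefore cannot be assigned to length rather than to scaling.

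**Figure D1:**
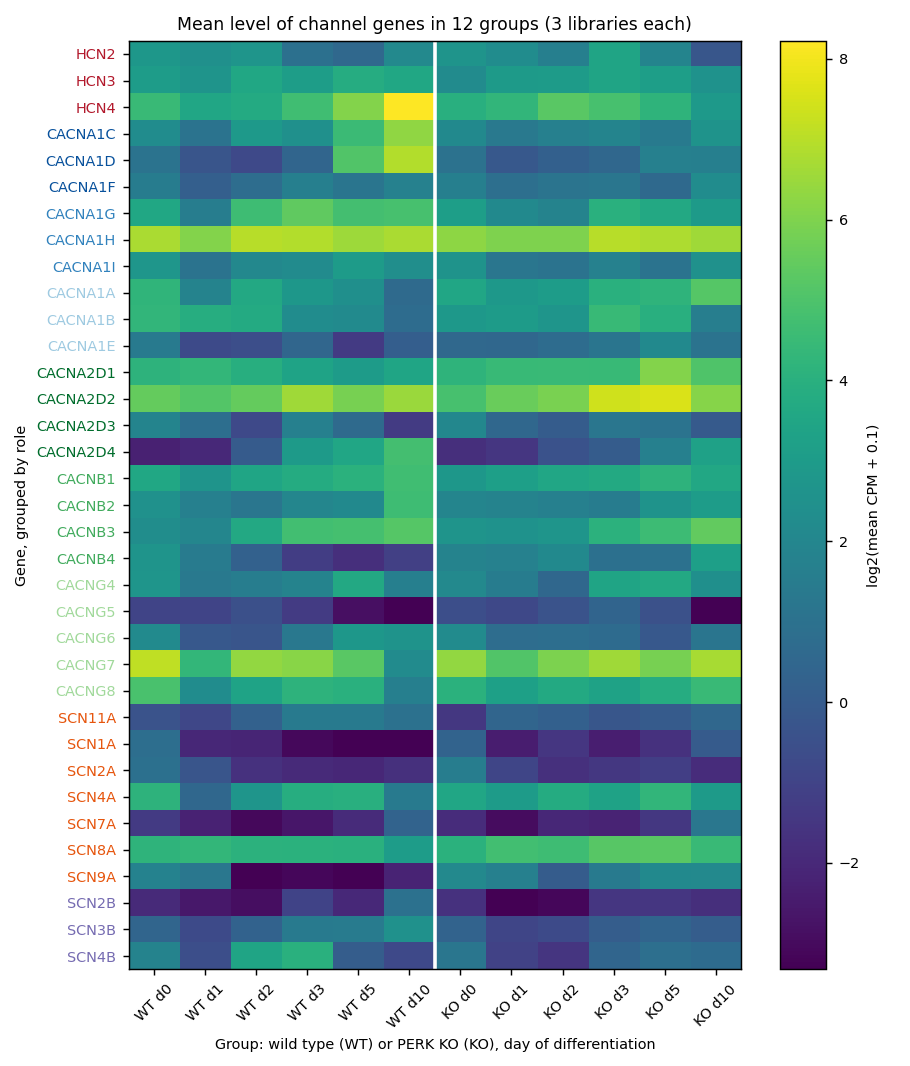
Mean level of 35 of the 38 channel genes that reached 1 CPM in a group, as log2 of the mean CPM of 3 libraries plus 0.1, in wild type (left 6 columns) and PERK KO (right 6 columns) by day, with gene names coloured by role. HCN4 is brightest in wild type at day 10 (mean 299 CPM), and CACNG7 is bright in wild type at day 0 (140 CPM) and in PERK KO at day 10 (106 CPM).

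At the earlier days fewer genes were called. At day 1, 13 of 39 were called (15.8% of all tested genes), 12 higher in PERK KO (8.11% of all) and CACNA1B lower (7.72% of all), but 8 were called with the length offset or without wild-type replicate 1, and 7 without PERK KO replicate 2. At day 2, 22 were called (42.6% of all), 9 higher (20.9%) and 13 lower (21.7%). At day 3, 21 were called (45.1%), 14 higher (21.9%) and 7 lower (23.2%). At day 5, 26 were called (59.0%), 15 higher (28.6%) and 11 lower (30.5%). The median log2 difference of the 39 genes was 0.31, 0.12, 0.09, 0.40 and 0.15 at days 1, 2, 3, 5 and 10, and that of all tested genes lay between -0.03 and 0.0. Each day's comparison uses its own libraries.

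Between day 0 and day 10, 33 of 39 were called in wild type (69.2% of all genes), 16 higher at day 10 (34.9% of all) and 17 lower (34.3%). In PERK KO 25 were called (61.8%), 15 higher (29.9%) and 10 lower (31.9%), or 9 higher and 17 lower with the length offset. Over all 6 days, each of the 39 changed in wild type (88.9% of all genes changed) and in PERK KO (80.9%). The course differed between the genotypes for 35 (80.9% of all genes), the exceptions being CACNA1S, the skeletal muscle L-type pore, CACNG5, SCN2A and SCN7A, none with a group mean above 2.85 CPM. The change from day 0 to day 10 differed between the genotypes for 27 (55.7%), 15 more positive (26.3%) and 12 more negative (29.4%) in PERK KO, or 10 and 15 with the length offset. These comparisons share the libraries of days 0 and 10 with those of the genotypes at those days.

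**Figure D2:**
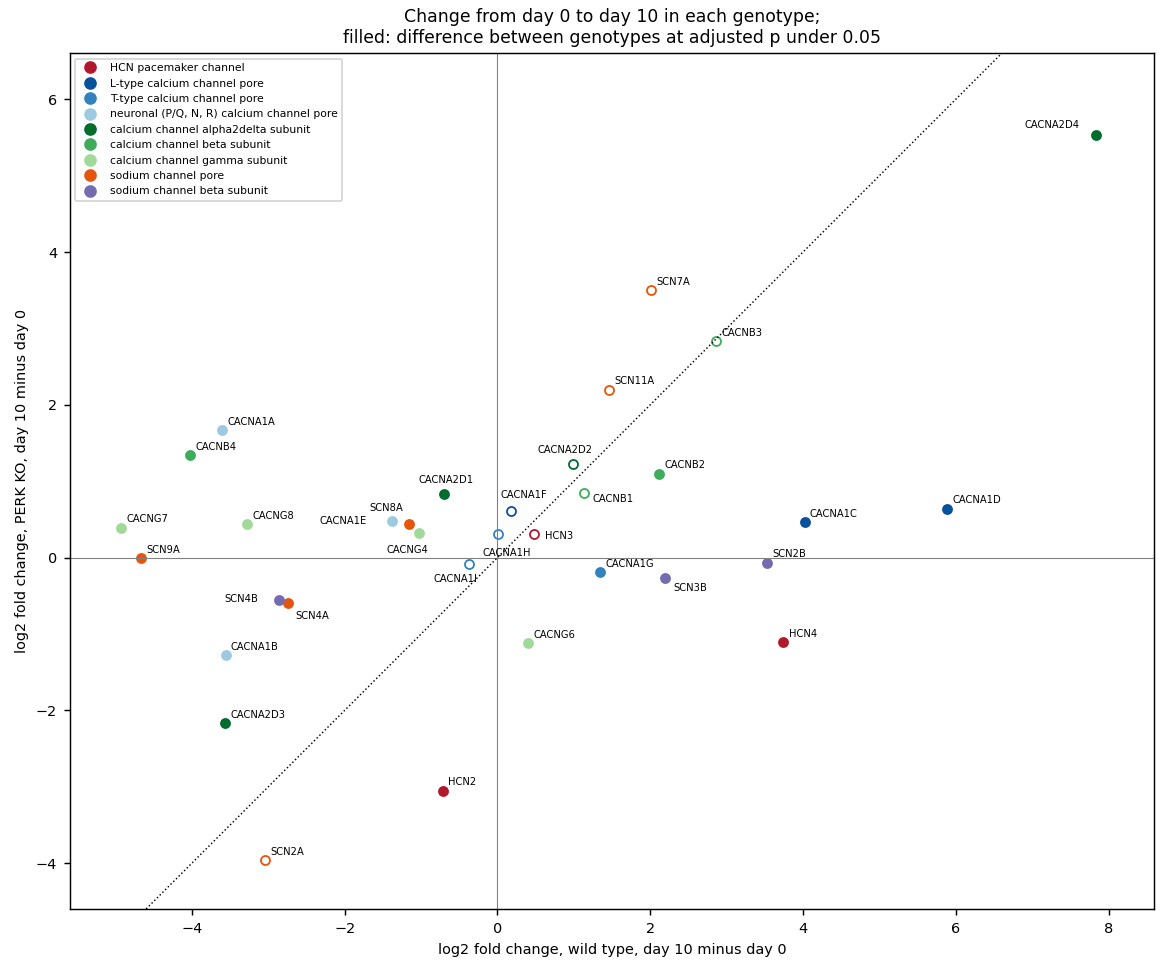
Log2 fold change from day 0 to day 10 in wild type (x axis) and in PERK KO (y axis) for 33 channel genes, coloured by role and filled where the difference between the genotypes passed an adjusted p of 0.05. SCN1A and CACNG5 are not drawn because a group had 0 counts. The dotted line marks equal change, and CACNA1D (5.88 against 0.64), HCN4 (3.74 against -1.11) and CACNG7 (-4.93 against 0.39) lie far from it.

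HCN4, the principal pacemaker channel of the sinoatrial node, gave 18.1, 25.3 and 23.8 CPM in the wild-type libraries of day 0, 72.9, 64.5 and 66.5 CPM at day 5 and 279, 193 and 424 CPM at day 10. In PERK KO the libraries gave 19.1, 8.91 and 18.9 CPM at day 0, 18.3, 16.3 and 19.4 CPM at day 5 and 8.44, 4.66 and 8.75 CPM at day 10. The wild-type libraries of day 10 were the highest of the 36, and the PERK KO libraries of day 10 were the lowest. HCN4 rose in wild type by 3.74 ± 0.27 (log2 fold change ± SE, 3 against 3 libraries, adjusted p = 2.35e-13, edgeR) and fell in PERK KO by 1.11 on the log2 scale (adjusted p = 0.000535). At day 10 the genotypes differed by -5.35 ± 0.29 (adjusted p = 7.15e-16). The order was the reverse at day 2, when PERK KO had 43.1, 36.2 and 37.7 CPM and wild type 11.7, 13.8 and 14.1 CPM, with no overlap and a log2 difference of 1.57 ± 0.25 (adjusted p = 8.52e-06). At day 3 the libraries overlapped.

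HCN2, an isoform of heart and brain, was lower in PERK KO at day 10 (4.17 ± 0.226 CPM in wild type, 0.744 ± 0.206 CPM in PERK KO, log2 difference -2.48 ± 0.25, adjusted p = 6.54e-10) and higher at day 3 (1.84 ± 0.675 against 10.5 ± 0.834 CPM, 2.52 ± 0.22). HCN3 was lower in PERK KO at day 10 by a smaller amount (11.6 ± 1.80 against 5.83 ± 0.213 CPM, -0.99 ± 0.16, adjusted p = 4.38e-06). PKLR, on the opposite strand, overlaps 13.5% of the exon bases of HCN3. Per transcript length, in TPM (the length-scaled share of transcripts that RSEM gives), the 4 pacemaker genes summed to 66.9 ± 19.8 TPM in wild type at day 10, of which HCN4 made 78.7%. In PERK KO they summed to 5.10 ± 0.543 TPM, led by HCN3 with 59.0%. The cardiomyocyte markers rose with HCN4 in wild type, with sums of 3610 to 5660 CPM at day 5 and 10400 to 13200 CPM at day 10. In PERK KO their sums also rose, from 10.6 to 12.8 CPM at day 5 to 73.6 to 314 CPM at day 10, while HCN4 fell. The part of these markers in the result was not tested.

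**Figure D3:**
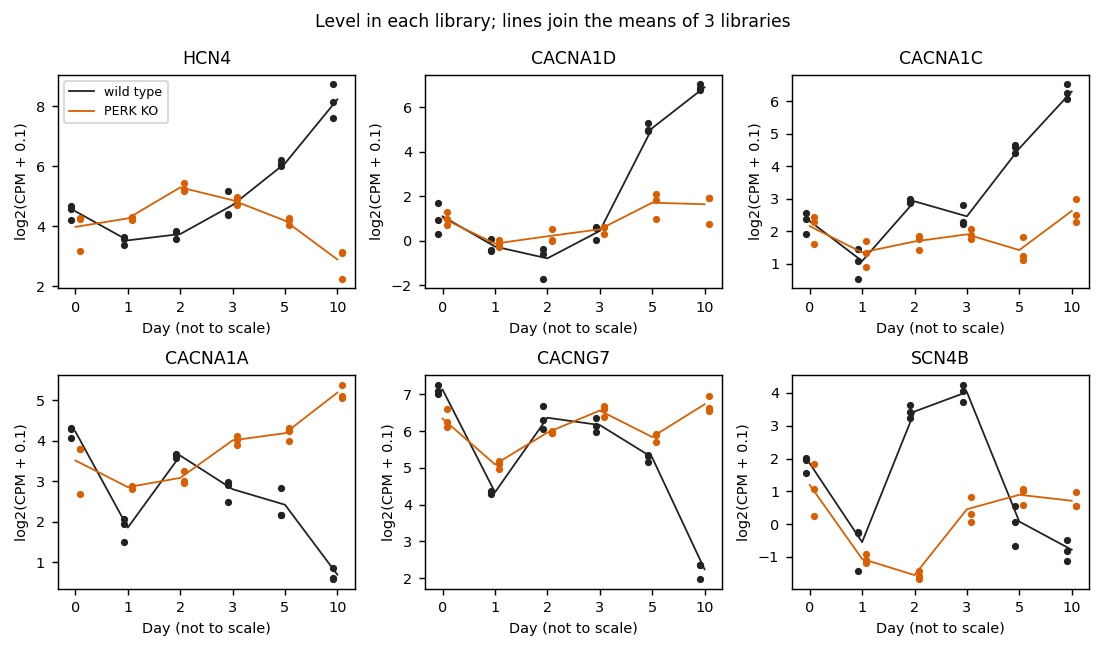
Level of 6 channel genes in each of the 36 libraries, as log2 of CPM plus 0.1, by day (days not to scale), in wild type (black) and PERK KO (orange), with lines joining group means. HCN4, CACNA1D and CACNA1C are apart at days 5 and 10, CACNG7 is furthest apart at day 10 (4.63 and 106 CPM), and SCN4B is high in wild type at days 2 and 3 (10.7 and 16.2 CPM).

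CACNA1D, the L-type pore of sinoatrial and neuroendocrine cells, gave 1.12, 3.17 and 1.82 CPM in wild type at day 0, 31.2, 30.4 and 39.0 CPM at day 5 and 132, 110 and 119 CPM at day 10. In PERK KO it gave 1.85, 1.56 and 2.34 CPM at day 0, 1.90, 4.16 and 3.47 CPM at day 5 and 3.72, 1.61 and 3.75 CPM at day 10. The wild-type libraries of days 5 and 10 lay above all others. The rise in wild type was 5.88 ± 0.32 (log2, adjusted p = 2.83e-16), the change in PERK KO was 0.64 ± 0.32 (adjusted p = 0.0801), and the day 10 difference was -5.31 ± 0.30 (adjusted p = 1.74e-15). At day 2, when it was rare, CACNA1D was called higher in PERK KO (0.878, 1.34 and 0.939 CPM against 0.669, 0.557 and 0.208 CPM in wild type, 1.14 ± 0.43, adjusted p = 0.0342). That call was lost without wild-type replicate 3 (0.77, adjusted p = 0.224), without PERK KO replicate 2 (0.93, adjusted p = 0.132) and in the fit of the 6 libraries of that day (adjusted p = 0.0736). CHDH, on the opposite strand, shares 6.8% of its exon bases and reached 39.8 CPM, and whether counting used strand is not given in the sources used here.

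CACNA1C, the main L-type pore of working heart muscle, gave 3.69, 5.12 and 5.82 CPM in wild type at day 0, 23.9, 21.3 and 25.2 CPM at day 5 and 77.3, 67.2 and 92.4 CPM at day 10. PERK KO gave 5.37, 2.94 and 4.79 CPM at day 0, 3.45, 2.05 and 2.25 CPM at day 5 and 5.56, 4.77 and 7.89 CPM at day 10. The genotypes overlapped at day 0, and at days 5 and 10 every wild-type library was above every PERK KO library. The rise in wild type was 4.02 ± 0.25 (log2, adjusted p = 8.97e-15), the change in PERK KO was 0.46 ± 0.25 (adjusted p = 0.106), and the day 10 difference was -3.70 ± 0.25 (adjusted p = 5.44e-14). CACNA1C was also lower in PERK KO at day 2 (7.49 ± 0.372 CPM in wild type, 3.12 ± 0.489 CPM in PERK KO, -1.26 ± 0.25, adjusted p = 0.000127, edgeR). At day 3 it was not called between the genotypes, nor was any other L-type pore. The cardiomyocyte markers at day 2 summed to 3.79 to 5.92 CPM in wild type and 3.18 to 5.15 CPM in PERK KO. Other lists were apart at day 2: the pluripotency markers summed to 1270 to 1760 CPM in wild type and 5270 to 5520 CPM in PERK KO, the neural markers to 2.34 to 2.79 CPM and 24.8 to 30.4 CPM, and the fibroblast markers to 155 to 216 CPM and 40.3 to 46.9 CPM. The sinoatrial transcription factors summed to 59.4 to 73.1 CPM in wild type and 0.658 to 1.02 CPM in PERK KO, where ISL1 and TBX18 had 0 counts. The part of these genes in the result was not tested.

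The other L-type pores were rare. CACNA1F, the retinal isoform, had its highest group mean at 4.77 CPM, and its day 10 call (0.58 ± 0.26, adjusted p = 0.0459) had overlapping libraries and was lost in 9 of the alternatives. CACNA1S had no group mean above 0.849 CPM. The 4 L-type pores summed to 81.1 ± 14.6 TPM in wild type at day 10, 65.8% of it CACNA1D, and to 7.03 ± 1.24 TPM in PERK KO. The share of CACNA1D depends on the transcripts to which its reads were assigned, since its mean effective length over the libraries was 2611 nt and its longest annotated transcript has 8991 nt.

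Among the T-type pores, which open near the resting potential, CACNA1H led in every group and made 72.7% to 94.6% of the summed TPM. Its group means lay between 63.0 and 127 CPM, both of them at day 2, where it was lower in PERK KO (-1.01 ± 0.16, adjusted p = 5.64e-06). At day 10 it was not called (-0.21 ± 0.16, adjusted p = 0.232). CACNA1G, a T-type pore of the sinoatrial node and conduction system, gave 2.37, 3.25 and 3.04 CPM in wild type at day 1, 22.2, 23.3 and 29.6 CPM at day 2 and 37.4, 45.6 and 45.5 CPM at day 3. PERK KO gave 5.09, 4.58 and 3.27, then 3.02, 4.13 and 3.48, then 14.8, 16.8 and 15.8 CPM at the same days. The genotypes were apart from day 2 on, with log2 differences of -2.82 ± 0.24, -1.44 ± 0.22, -1.14 ± 0.22 and -1.90 ± 0.23 at days 2, 3, 5 and 10 (adjusted p = 4.44e-11, 2.02e-06, 5.7e-05 and 1.63e-08). CACNA1I, a T-type pore of brain, was lower in PERK KO at day 5 (8.11 ± 0.669 against 2.02 ± 0.241 CPM, adjusted p = 2e-07) and not called at day 10 (0.15 ± 0.25, adjusted p = 0.624).

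The neuronal pores went the other way between the genotypes at day 10. Between day 0 and day 10 in PERK KO, 1 was called higher, 1 lower and 1 was not called (61.8% of all genes were called). CACNA1A, the P/Q-type pore of central synapses, gave 19.4, 16.6 and 19.8 CPM in wild type at day 0, 4.37, 6.97 and 4.37 CPM at day 5 and 1.70, 1.42 and 1.40 CPM at day 10. In PERK KO it gave 13.9, 6.34 and 13.7 CPM at day 0, 19.9, 15.7 and 18.7 CPM at day 5 and 33.3, 41.8 and 34.2 CPM at day 10. The PERK KO libraries of day 10 were the highest of the 36 and the wild-type libraries of day 10 the lowest. CACNA1A fell in wild type (-3.61 ± 0.24, adjusted p = 3.7e-14), rose in PERK KO (1.67 ± 0.20, adjusted p = 3.66e-08) and differed by 4.58 ± 0.24 at day 10 (adjusted p = 3.82e-16). The neural markers were also higher in PERK KO, at 2.47 to 4.15 CPM in wild type and 269 to 307 CPM in PERK KO at day 5. At day 10 they summed to 6.37 to 13.0 CPM and 649 to 844 CPM. Within wild type they summed to 9.55 to 12.9 CPM at day 0 and 1.3 to 1.51 CPM at day 3. Both their sum and CACNA1A were lower at day 5 than at day 0. By day 10 the sum was higher again, while CACNA1A was lower still. The part of these markers in the result was not tested.

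CACNA1B, the N-type pore, was higher in PERK KO at day 3 (22.0 ± 2.60 CPM against 4.79 ± 0.0985 CPM in wild type, 2.20 ± 0.22, adjusted p = 1.07e-09), after being lower at days 0, 1 and 2. CACNA1E, the R-type pore, had its highest mean in PERK KO at day 5 (4.38 ± 0.450 against 0.293 ± 0.0798 CPM, 3.90 ± 0.36). All 3 neuronal pores were called higher in PERK KO at days 3, 5 and 10, but the day 10 calls of CACNA1B and CACNA1E were lost with the length offset and the day 3 call of CACNA1E in 8 alternatives. They summed to 21.4 ± 3.34 TPM in PERK KO at day 10, with 96.0% from CACNA1A, and to 1.23 ± 0.332 TPM in wild type.

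**Figure D4:**
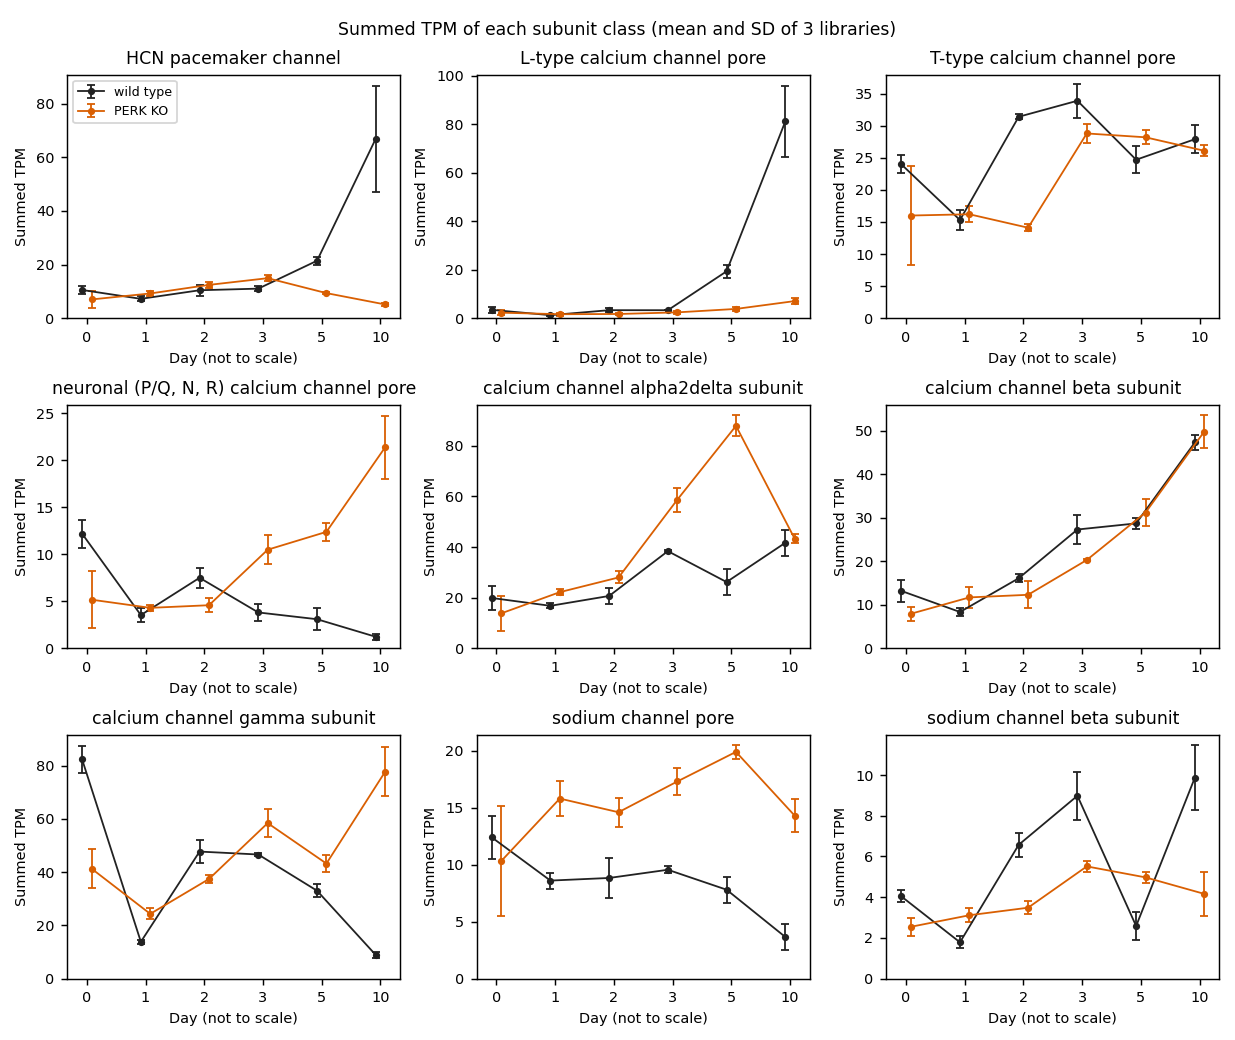
Summed TPM of each of 9 subunit classes by day (days not to scale) in wild type (black) and PERK KO (orange), as mean and SD of 3 libraries, with each axis from 0. Wild type is higher for the pacemaker and L-type sums at days 5 and 10, PERK KO is higher for the neuronal pores, gamma subunits and sodium channel pores at day 10, and the beta subunits end at 47.3 and 49.8 TPM.

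The alpha2delta subunits, which carry the pores to the cell surface, differed most between the genotypes at day 5, when they summed to 26.2 ± 4.99 TPM in wild type and 87.9 ± 4.10 TPM in PERK KO. CACNA2D2, the leading member in every group, gave 65.5, 61.8 and 44.2 CPM in wild type and 186, 190 and 189 CPM in PERK KO at that day (1.72 ± 0.24, adjusted p = 2.53e-07). By day 10 its libraries overlapped (88.5 ± 21.6 against 69.0 ± 6.08 CPM, adjusted p = 0.168). CYB561D2 shares 9.59% of its exon bases on the opposite strand. CACNA2D1, the main alpha2delta subunit of heart, gave 8.29, 8.02 and 7.80 CPM in wild type and 73.7, 58.2 and 73.2 CPM in PERK KO at day 5, without overlap (3.09 ± 0.38, adjusted p = 3.2e-08), and differed by 1.57 ± 0.36 at day 10. CACNA2D4 rose in both genotypes, from 0.110 ± 0.0729 to 27.1 ± 3.06 CPM in wild type and from 0.192 ± 0.109 to 9.67 ± 2.15 CPM in PERK KO, and was lower in PERK KO at day 10 (-1.48 ± 0.27, adjusted p = 1.53e-05). CACNA2D3 fell in both, by 3.57 and 2.17 on the log2 scale.

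Of the beta subunits, which bind the pore from inside and set its gating, all 4 were called between day 0 and day 10 in each genotype, as were 69.2% of all genes in wild type and 61.8% in PERK KO. CACNB3 rose from 4.91 ± 2.13 to 35.6 ± 6.73 CPM in wild type and from 6.10 ± 1.07 to 43.6 ± 2.06 CPM in PERK KO, and the difference between these changes was -0.03 ± 0.29 (log2, adjusted p = 0.949). CACNB2, the main beta subunit of heart, gave 28.5, 21.7 and 23.3 CPM in wild type and 8.39, 8.76 and 7.46 CPM in PERK KO at day 10, without overlap (-1.58 ± 0.26, adjusted p = 3.19e-06). CACNB1, the skeletal muscle beta subunit, was also lower in PERK KO at day 10 (25.7 ± 2.53 against 12.1 ± 1.02 CPM, -1.08 ± 0.13). CACNB4, a beta subunit of brain, fell in wild type from 6.22 ± 0.514 to 0.362 ± 0.152 CPM and rose in PERK KO from 3.54 ± 1.21 to 9.10 ± 1.28 CPM, a day 10 difference of 4.57 ± 0.45 (adjusted p = 3.87e-10). AC068547.1 shares 5.98% of the exon bases of CACNB4 on the same strand, so the counts of CACNB4 are uncertain by the reads that fall there.

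Of the 8 gamma subunits, several of which act on glutamate receptors rather than on calcium channels, 5 were tested. CACNG7 was the most abundant channel gene of wild type at day 0 per transcript length (71.1 ± 5.76 TPM). Its libraries gave 130, 136 and 154 CPM in wild type at day 0 and 3.85, 4.99 and 5.03 CPM at day 10. In PERK KO they gave 69.7, 96.7 and 76.4 CPM at day 0 and 99.6, 125 and 94.1 CPM at day 10. All wild-type libraries of day 10 were below all other libraries of the 36, and the day 10 difference was 4.53 ± 0.18 (adjusted p = 3.61e-19). The change over time was -4.93 ± 0.18 in wild type and 0.39 ± 0.15 in PERK KO, the latter with overlapping libraries and not called with the length offset (0.05, adjusted p = 0.857). Group means were lower at day 1 than at day 0 in both genotypes (20.1 ± 0.594 CPM in wild type and 34.1 ± 2.81 CPM in PERK KO), a change that was not tested. CACNG8, next to CACNG7 on chromosome 19, fell in wild type by 3.28 on the log2 scale and gave 3.02 ± 0.699 CPM against 22.5 ± 1.54 CPM in PERK KO at day 10 (2.88 ± 0.18, adjusted p = 2.39e-14). CACNG6, the next gene along, was lower in PERK KO at day 5 (6.77 ± 0.938 against 0.805 ± 0.282 CPM) and at day 10 (5.93 ± 2.04 against 2.12 ± 0.293 CPM, -1.47 ± 0.30, adjusted p = 8.91e-05). CACNG4 was called higher in PERK KO at day 10 (0.74 ± 0.24), a call lost with the length offset and without wild-type replicate 2. CACNG5 had 0 counts in both genotypes at day 10, at least 7.76-fold lower than at day 0 in wild type and at least 13.5-fold lower in PERK KO, taking 3 counts for the group at 0.

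The sodium channel pores carry the fast inward current of excitable cells. SCN8A, a sodium channel of neurons, reached 38.9 ± 1.98 CPM in PERK KO and 16.0 ± 2.69 CPM in wild type at day 5 (1.28 ± 0.24) and was also higher in PERK KO at days 3 and 10 (1.18 ± 0.24 and 1.45 ± 0.25). SCN4A, the skeletal muscle sodium channel, gave 6.95, 8.25 and 8.41 CPM in PERK KO against 1.17, 1.42 and 1.49 CPM in wild type at day 1, without overlap (2.54 ± 0.27, adjusted p = 1.81e-08). It was not called at day 5 (0.31 ± 0.22, adjusted p = 0.229) and was higher in PERK KO at day 10 (7.65 ± 1.71 against 2.63 ± 0.686 CPM). SCN9A, a channel of pain-sensing neurons, had 0 counts in wild type at days 2 and 5, and 0.658, 0.858 and 1.22 CPM at day 2 and 5.17, 3.67 and 4.45 CPM at day 5 in PERK KO. That makes it at least 17.1-fold higher in PERK KO at day 2 and at least 82.9-fold higher at day 5. At day 10 the means were 0.123 ± 0.0511 CPM in wild type and 4.18 ± 0.843 CPM in PERK KO, where the gene had changed by -0.01 ± 0.25 since day 0 (log2, adjusted p = 0.99). SCN1A, a sodium channel of the brain, had 0 counts in wild type at day 10, at least 31.1-fold below day 0, and was at least 16.1-fold higher in PERK KO (0.887 ± 0.137 CPM).

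Other sodium channel pores were rare. SCN2A fell between day 0 and day 10 in both genotypes, from 1.80 ± 0.350 CPM in wild type and 2.85 ± 0.919 CPM in PERK KO. SCN7A and SCN11A had no group mean above 2.60 CPM and rose in both genotypes between day 0 and day 10, although the wild-type call of SCN7A was lost without replicate 1 of either day. The sodium channel pores summed to 3.65 ± 1.15 TPM in wild type at day 10 and 14.3 ± 1.46 TPM in PERK KO.

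The sodium channel beta subunits are small proteins that modulate the pores. SCN4B formed an early wave in wild type, with 0.272, 0.734 and 0.746 CPM at day 1, 10.6, 9.24 and 12.2 CPM at day 2, 13.1, 19.0 and 16.5 CPM at day 3 and 0.950, 1.38 and 0.535 CPM at day 5. PERK KO gave 0.274, 0.215 and 0.235 CPM at day 2 and 1.69, 1.15 and 0.953 CPM at day 3. Every wild-type library of these 2 days was above every PERK KO library, with log2 differences of -5.43 ± 0.39 at day 2 (adjusted p = 7.2e-13) and -3.66 ± 0.31 at day 3 (adjusted p = 1.73e-11). The pluripotency markers differed at the same days, at 1270 to 1760 CPM in wild type and 5270 to 5520 CPM in PERK KO at day 2 and at 555 to 722 CPM and 5550 to 5950 CPM at day 3, and their part in the result was not tested. At day 10 SCN4B was higher in PERK KO (1.54 ± 0.285 against 0.482 ± 0.128 CPM, 1.67 ± 0.39, adjusted p = 0.000369). SCN3B was lower in PERK KO at day 10 (5.71 ± 0.234 against 0.974 ± 0.293 CPM, -2.54 ± 0.30, adjusted p = 1.48e-08). SCN2B was too (1.39, 0.742 and 3.47 CPM in wild type, 0.196 ± 0.105 CPM in PERK KO, -3.22 ± 0.60, adjusted p = 3.17e-05).

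**Figure D5:**
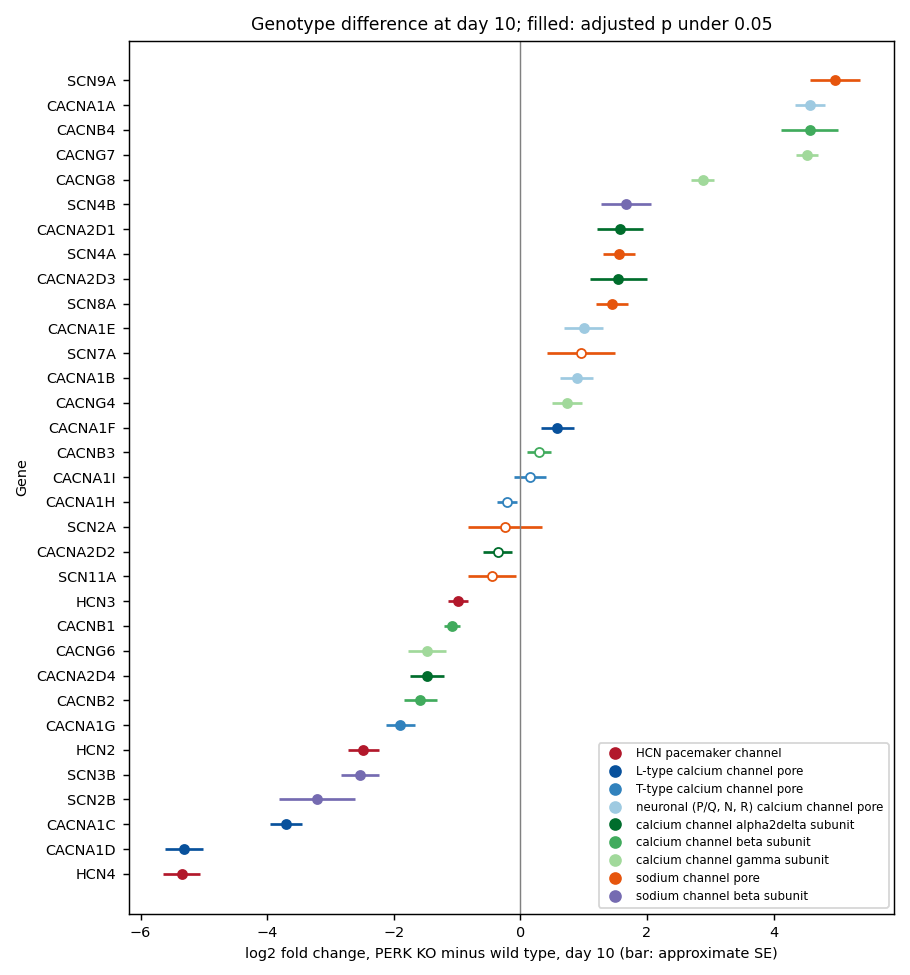
Log2 fold change of PERK KO against wild type at day 10 with its approximate SE for 33 channel genes, sorted and coloured by role, filled where the adjusted p was under 0.05. SCN1A and CACNG5 are not drawn because a group had 0 counts. HCN4 (-5.35) and CACNA1D (-5.31) lie at the lower end and SCN9A (4.97), CACNA1A (4.58) and CACNB4 (4.57) at the upper end.

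Per transcript length, the highest channel genes of wild type at day 10 were CACNA1D (53.4 ± 11.6 TPM) and HCN4 (52.7 ± 18.5 TPM), whose libraries overlapped. CACNA1C (26.9 ± 4.18 TPM), CACNA2D2 (25.5 ± 4.74 TPM), CACNB3 (23.2 ± 2.58 TPM) and CACNA1H (21.9 ± 0.967 TPM) came next, each overlapping its neighbour in this order. In PERK KO at day 10 CACNG7 was first (68.7 ± 8.46 TPM), above CACNB3 (34.6 ± 1.89 TPM), and then CACNA2D2 (25.4 ± 2.06 TPM), CACNA1H (23.3 ± 0.770 TPM) and CACNA1A (20.5 ± 3.21 TPM), of which neighbours overlapped. HCN4 and CACNA1D stood at 1.62 ± 0.523 and 1.83 ± 1.05 TPM there.

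Partner genes of these channels were counted from lists of known role. Of 13 calcium channel partners 12 were tested, and 3 were called higher and 8 lower in PERK KO at day 10, when 67.3% of all tested genes were called, 33.3% higher and 34.0% lower. RRAD, an inhibitor of the L-type current (0.421 against 234 CPM, -9.05 ± 0.41), and JPH2, which holds L-type channels close to the calcium store (3.98 against 201 CPM, -5.65 ± 0.28), had the smallest p, followed by STAC, a channel adaptor (4.56 against 29.6 CPM, -2.70 ± 0.17), and all 3 were lower. Of the 6 genes of excitation-contraction coupling 5 were called lower (34.0% of all) and none higher (33.3% of all), among them RYR2, the calcium release channel (8.39 against 140 CPM, -4.06 ± 0.40), SLC8A1, the sodium-calcium exchanger (27.1 against 168 CPM, -2.63 ± 0.29), and TRDN, which anchors the release channel complex (1.27 against 19.5 CPM, -3.93 ± 0.46). Of 11 sodium channel partners 9 were tested, 4 higher and 4 lower, with FGF13, which binds sodium channel tails (20.6 against 51.1 CPM, -1.31 ± 0.13), lower and NEDD4L, a ubiquitin ligase (89.9 against 48.9 CPM, 0.88 ± 0.10), higher. None of the 3 tested HCN partners, KCNE2, PEX5L and MRVI1, was called by edgeR (adjusted p = 0.0594, 0.0831 and 0.203). Of 4 sinoatrial transcription factors 3 were tested, and 2 were called lower in PERK KO (34.0% of all), none higher and 1 not called. The 2 were TBX3 (21.7 against 119 CPM, -2.46 ± 0.22) and ISL1 (12.2 against 49.1 CPM, adjusted p = 7.53e-06, edgeR). SHOX2 had 0 counts in wild type at day 10 but not in PERK KO. Of 4 genes of the REST complex 2 were called higher and 1 lower, a share near that of all tested genes (67.3% called): REST (87.8 against 45.8 CPM, 0.94 ± 0.33) and SIN3A (103 against 71.2 CPM, 0.53 ± 0.19) were higher and RCOR1 (79.6 against 120 CPM, -0.60 ± 0.14) lower. The median log2 difference was -1.38 for the calcium channel partners, -3.03 for excitation-contraction coupling and 0.11 for the sodium channel partners, against 0.0 for all tested genes.

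At day 0, before differentiation, 8 of 39 channel genes were called, against 21.1% of all tested genes. All 8 were lower in PERK KO, as were 8.64% of all tested genes, while 12.5% of all were higher. They were CACNA1A (-0.70 ± 0.20), CACNA1B (-1.39 ± 0.22), CACNA1E (-0.86 ± 0.31), CACNA1H (-0.51 ± 0.16), CACNB1 (-0.79 ± 0.14), CACNG7 (-0.79 ± 0.15), CACNG8 (-0.84 ± 0.17) and HCN3 (-0.82 ± 0.17). Without PERK KO replicate 2, the library of short effective length, 6 were called, and CACNA1A (-0.43, adjusted p = 0.0786), CACNA1E (-0.70, adjusted p = 0.12) and CACNA1H (-0.28, adjusted p = 0.106) were not among them. With the length offset 5 were called. In a fit of the 6 libraries of day 0 alone edgeR called 0 of 33 tested, with 8 at an unadjusted p under 0.05, all lower, while DESeq2 on the 36 libraries called 11.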

How the data were processed

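Poly(A) RNA of 36 libraries was sequenced. The authors deposited RSEM expected counts, TPM and effective lengths per gene, per the file headers, with identifiers of GENCODE release 29. The submitters' processing notes name CASAVA, FastQC, STAR, RSEM and GRCh38 (hg38). Neither versions nor the strand setting appear in the sources used here. The series text names days 0, 2 and 6, and the sample labels, used here, give 0, 1, 2, 3, 5 and 10.

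Expected counts were rounded (6.53% to 9.43% of values per library were not whole), filtered with filterByExpr (19772 genes kept), TMM-scaled and fitted over all 12 groups, which leaves 24 residual degrees of freedom. The quasi-likelihood F test of edgeR 4.0.16 was used (R 4.3.3 with limma 3.58.1), with Benjamini-Hochberg adjustment over all 19772 genes and calls under 0.05. The SE is the log2 fold change divided by the root of F. Folds against groups at 0 counts use a floor of 3 counts over the group. TPM sums were described without a test. Figures were drawn with matplotlib 3.10.9 and tables made with pandas 2.3.3 (Python 3.11.15, numpy 2.4.6). On counts simulated for PERK KO against wild type at day 3 (19772 genes), 16.4% of 67 genes changed 1.5-fold, 64.2% of 67 changed 2-fold and 97.0% of 66 changed 4-fold were called, with 3 false calls. Only these genes were changed in the simulation, whereas 45.1% of all tested genes were called at day 3 in the data. The adjustment of p depends on that share, so these rates do not carry over to the reported tests.

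The genes, lists and tests were chosen with earlier results of these data known. Genes with a mean of 1 CPM in some group were named, and given by library where they reached 5 CPM and were called between genotypes with a log2 difference of at least 1, or where the text turns on them. Of each partner list the 3 called genes of smallest p were named, and results for some genes are not reported here. SHOX2 and the uncalled HCN partners were added after their values were seen. Alternatives were RLE scaling, no filter, DESeq2 1.42.0, a replicate block, a transcript length offset added to the TMM scaling, the 6 compared libraries alone, and leaving out libraries.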

Additional observations from a re-analysis of the deposited data

Results flagged for a closer look

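For 27 channel genes, 24 of them given here, the change from day 0 to day 10 differed between the genotypes by the interaction test (edgeR, adjusted p under 0.05, 3 libraries a group). Values are the log2 change in PERK KO minus that in wild type. All use the day 0 and day 10 libraries of both genotypes. More negative in PERK KO were the pacemaker genes HCN4 (-4.85) and HCN2 (-2.33), and the calcium channel pores CACNA1D (-5.23), CACNA1C (-3.56) and CACNA1G (-1.53). The same held for the calcium channel subunits CACNA2D4 (-2.31), CACNG6 (-1.52) and CACNB2 (-1.02), and for the sodium channel beta subunits SCN2B (-3.60) and SCN3B (-2.47).

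More positive in PERK KO were the neuronal pores CACNA1A (5.28), CACNA1B (2.28) and CACNA1E (1.87). Among calcium channel subunits these were CACNB4 (5.36), CACNG7 (5.32), CACNG8 (3.72), CACNA2D1 (1.53), CACNA2D3 (1.41) and CACNG4 (1.35). Among sodium channel genes they were SCN9A (4.66), SCN4B (2.31), SCN4A (2.15) and SCN8A (1.60). The fitted value of SCN1A (7.57) is no bound, since wild type had 0 counts at day 10. The calls of CACNA1E, CACNA2D1, CACNA2D3 and CACNG4 were lost with the length offset, and those of CACNB2, CACNA2D3 and CACNA2D4 when certain single libraries were left out.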

How the results depend on the processing

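Of 315 calls of named channel genes, 262 were kept under every alternative run for them and 53 were lost under at least 1, where DESeq2 and the fit of 6 libraries were run for a part of the calls. The count of channel genes called between the genotypes at day 0 (8) was 5 with the length offset and 0 in the fit of the 6 day 0 libraries, where all tested genes gave 304 calls against 4177. Leaving out single libraries gave 6 to 11. The count at day 1 (13) was 8 with the length offset and 7 to 10 with single libraries left out, and over all genes 3129 calls became 7355 in the fit of 6 libraries and 4931 without the 2 libraries that stand apart. The length offset reversed CACNA1F between the genotypes at day 10 (from 0.58 to -0.02, adjusted p = 0.953) and CACNG8 between day 0 and day 10 in PERK KO (from 0.44 to -0.67, adjusted p = 0.0122, edgeR). With it, the share of higher calls among all genes moved from 59.1% to 72.5% at day 0, from 49.4% to 37.4% at day 10, from 48.4% to 38.2% between day 0 and day 10 in PERK KO, and from 47.2% to 32.4% for the interaction. Since this offset takes out each library's overall shift on top of TMM, these moves and reversals cannot be read as an effect of length. The parts of length and scaling in them were not tested. With a replicate block the counts were 8, 13, 22, 22, 26 and 31 at days 0, 1, 2, 3, 5 and 10, and no call of a named gene changed. Same-numbered libraries correlated between -0.13 and 0.32, so the numbers were not taken as pairs. On simulated counts with few changed genes, 16.4% of changes of 1.5-fold were called at day 3, a rate that does not carry over to the data.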
